A study of Mus musculus with 8 samples.

Results

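Mitochondrial ribosomal protein genes were taken as every row of the deposited table whose symbol starts with Mrpl or Mrps followed by a digit, which gave 78 of 22173 genes, 49 named for the large subunit (Mrpl) and 29 for the small subunit (Mrps). All 78 passed the filter on low counts, with 140 to 2964 counts per gene and library. RNA came from skeletal muscle of C57BL/6 mice with diet-induced obesity, aged 24 weeks when 8 were assigned to each group. The liraglutide group received 0.2 mg/kg of the GLP-1 receptor agonist liraglutide under the skin each day over 9 weeks, and saline was given to the other group, called model. Libraries from 4 mice of each group were analysed, each with its own animal code, and both groups were obese. Which muscle was taken is not given in the sources used here.

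The mitochondrial ribosome translates the few proteins encoded by mitochondrial DNA, all of them subunits of the respiratory chain or ATP synthase. Its RNA comes from mitochondrial DNA, whereas its proteins are encoded in the nucleus, made in the cytosol and imported. Some descend from bacterial ribosomal proteins and others exist in mitochondria only. The large subunit forms peptide bonds and the small subunit binds and decodes the messenger RNA. A symbol does not always give the place of its protein: Mrps18a and Mrps30 encode large subunit proteins of the mammalian mitochondrial ribosome, and Mrps36 encodes a subunit of the alpha-ketoglutarate dehydrogenase complex.

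Library totals were 17133476 to 18244579 counts with liraglutide and 15033631 to 16622716 counts in model, ranges that did not overlap. The 10 muscle fibre markers summed to 206423 to 222089 counts per library scaled to a common total (CPM) with liraglutide and 202865 to 206259 CPM in model, so the tissue label held, and 4 of them rose (Acta1, Ckm, Mylpf and Atp2a1). The 10 adipocyte markers, of which 7 fell, summed to 945 to 1385 CPM with liraglutide and 1569 to 2460 CPM in model. The 7 fibroblast markers summed to 801 to 1318 CPM with liraglutide and 1335 to 1380 CPM in model, and the 6 endothelial markers to 318 to 355 CPM with liraglutide and 369 to 413 CPM in model. The 8 macrophage markers summed to 259 to 426 CPM with liraglutide and 341 to 414 CPM in model, and the 6 neutrophil markers to 69.0 to 227 CPM with liraglutide and 4.46 to 131 CPM in model. The 7 epididymis markers, of a tissue foreign to muscle, summed to 0.339 to 146 CPM with liraglutide and 32.1 to 53.6 CPM in model, and 6 of them fell. Gpx5, for one, had 0.0677 to 0.394 FPKM with liraglutide and 6.69 to 17.0 FPKM in model, whereas Crisp1 stood at 102 FPKM in liraglutide 2, against 0.0824 to 0.808 FPKM in the other liraglutide libraries and 2.51 to 6.72 FPKM in model. The 6 brown adipocyte markers summed to 189 to 207 CPM with liraglutide and 152 to 169 CPM in model. Among them Cox8b had 534 ± 19.7 FPKM with liraglutide and 424 ± 18.1 FPKM in model, while the defining brown fat gene Ucp1 had 0.0266 ± 0.0533 FPKM with liraglutide and 0.0561 ± 0.0471 FPKM in model (SD, n = 4 each; FPKM is the count scaled to gene length and library total). Cox8b, which rose, supplied most counts of the brown adipocyte list, 3173 to 3570 per library with liraglutide and 2219 to 2712 in model. Cidea, Dio2 and Zic1 of that list did not pass (edgeR log2 change -0.21, 0.036 and -0.13). Ucp1 and Elovl3 did not pass the filter on low counts and were not tested. No marker gene was at 0 in all libraries, and the part of these lists in the results below was not tested. In bulk RNA, fewer cells of a type and less RNA per cell cannot be told apart.

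Part of the mitochondrial ribosomal protein genes rose in muscle of liraglutide-treated mice. In edgeR's quasi-likelihood test 22 of 78 genes rose and 0 fell at a Benjamini-Hochberg adjusted p under 0.05, against 5.45% of the 12963 genes tested that rose and 4.83% that fell. At an unadjusted p under 0.05 in either direction, 39 of 78 passed, against 26.5% of all genes. The median log2 fold change (liraglutide minus model) was 0.16, a 1.11-fold difference, beside -0.012 for all genes tested, and 67 of the 78 values were above 0, against 47.8% of all genes. The genes that rose did so by 1.13-fold to 1.45-fold, with a median of 1.24-fold. The count of genes that rose was 11 without model 1 (2.63% of all genes), 12 without model 2 (2.87%), 12 without model 4 (3.15%) and 14 without liraglutide 3 (3.73%). It was 17 without liraglutide 1 (4.01%), 17 without liraglutide 2 (4.67%), 19 without model 3 (3.42%) and 23 without liraglutide 4 (5.05%).

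Of the other fits, edgeR with RLE factors called 22 (5.6% of all genes), and 20 were called without a filter on low counts (3.33%). A minimum count of 50 gave 22 (6.7%), robust estimation 22 (5.74%) and DESeq2 23 (5.39%). With library totals as the only scaling 14 genes rose (2.61% of all genes), with limma on log2(FPKM + 1) 13 (2.77%) and on log2(FPKM + 0.1) 13 (2.72%). With the replicate number as a block 19 rose (3.97%), and without liraglutide 2 and model 3 together 9 (2.82%). With a correction for gene length 9 rose (2.86%) and 1 fell (3.1%), and with one for length and GC content 7 rose (1.29%) and 0 fell (2.2%).

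Genes of both subunits were among those that rose. Of 49 large subunit genes 13 rose and 0 fell (median log2 fold change 0.17), and of 29 small subunit genes 9 rose and 0 fell (median 0.14). The medians differed by 0.030, and this difference was not tested. In each library the log2 level of every gene was also set against its mean over the model libraries. On that measure the median of large minus that of small subunit genes averaged 0.00027 with liraglutide (SD 0.061, n = 4). In model it averaged -0.0090 (SD 0.016, n = 4). Grouped by position in the ribosome instead of by symbol, 14 of 51 large and 8 of 26 small subunit genes rose, with medians of 0.17 and 0.14.

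**Figure D1:**
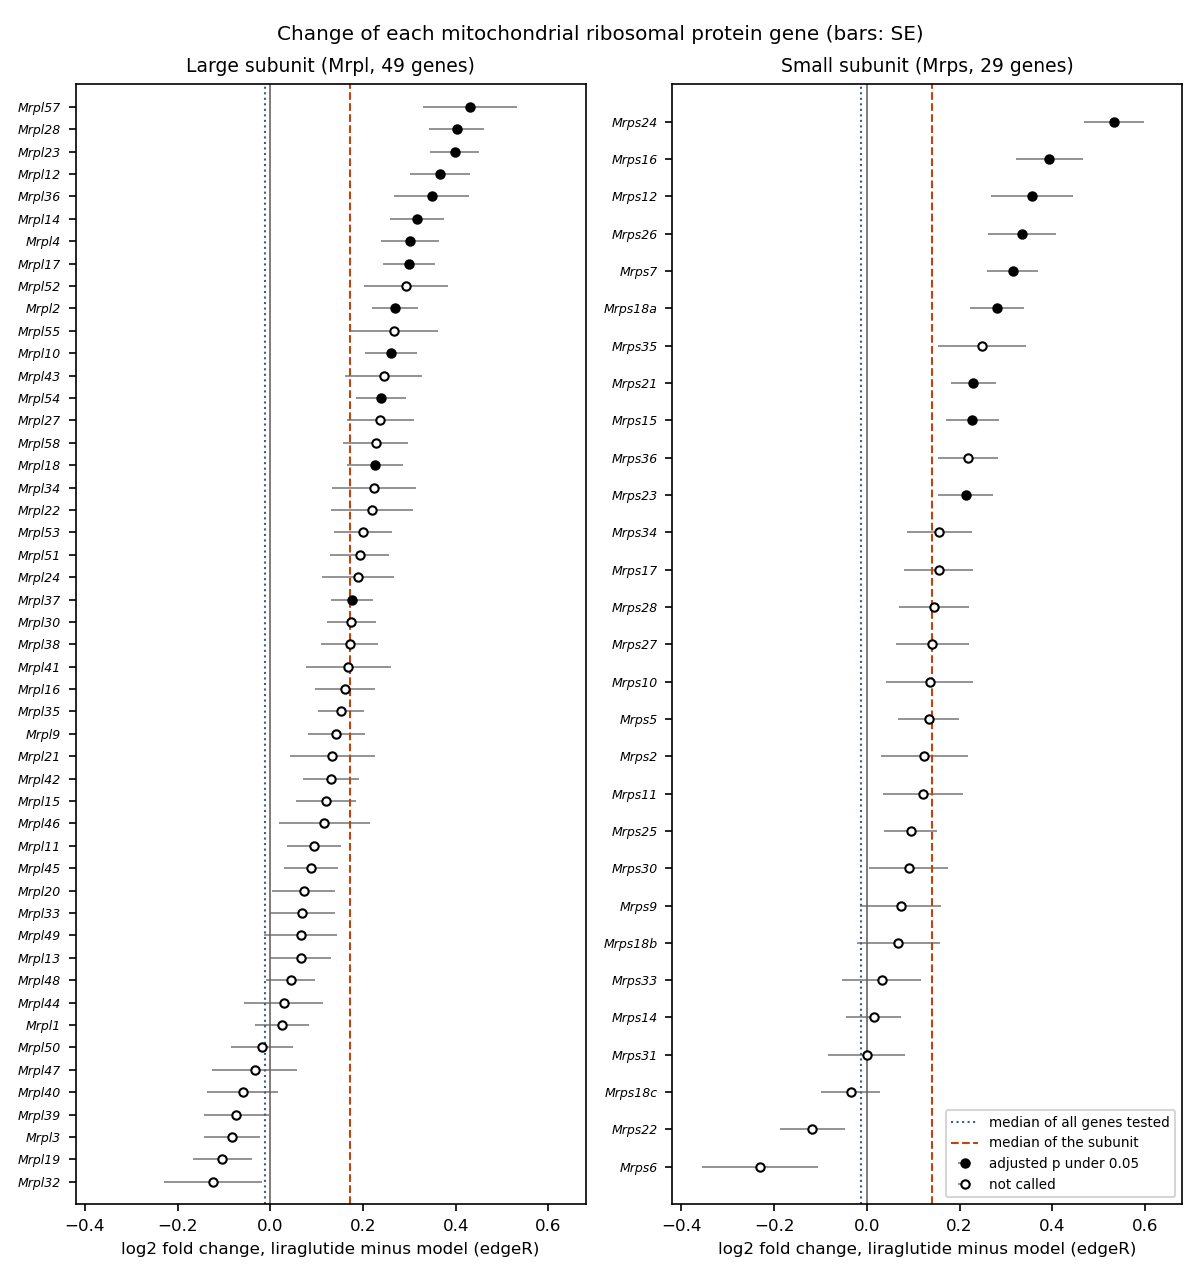
Log2 fold change (x axis, edgeR, liraglutide minus model; bars are SE) of the 49 Mrpl genes (left) and 29 Mrps genes (right), sorted by value; filled points passed an adjusted p under 0.05. The dashed subunit medians, 0.17 and 0.14, lie to the right of the dotted median of all genes tested, -0.012, and all 22 filled points are above 0.

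Summed levels were also set side by side per library. Large subunit transcripts summed to 1452, 1507, 1492 and 1379 FPKM in liraglutide mice 1 to 4, against 1318, 1356, 1379 and 1368 FPKM in model mice 1 to 4. Small subunit transcripts summed to 844, 905, 853 and 839 FPKM with liraglutide, against 792, 787, 802 and 781 FPKM in model. The groups did not overlap in either sum, but liraglutide 4 exceeded the highest model library in the large subunit sum by less than 1 FPKM (1379.48 against 1379.16 FPKM). As a share of the FPKM of all genes, given below, the groups did overlap for both subunits together. The mean sum was 7.57% higher with liraglutide for the large and 8.86% higher for the small subunit. The ratio of the large to the small sum was 1.69 ± 0.049 with liraglutide and 1.71 ± 0.037 in model (SD, n = 4 each), and its groups overlapped. Per gene, large subunit transcripts averaged 29.8 ± 1.17 FPKM with liraglutide and 27.7 ± 0.546 FPKM in model, and small subunit transcripts 29.7 ± 1.05 FPKM with liraglutide and 27.3 ± 0.298 FPKM in model (SD over n = 4 libraries).

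**Figure D2:**
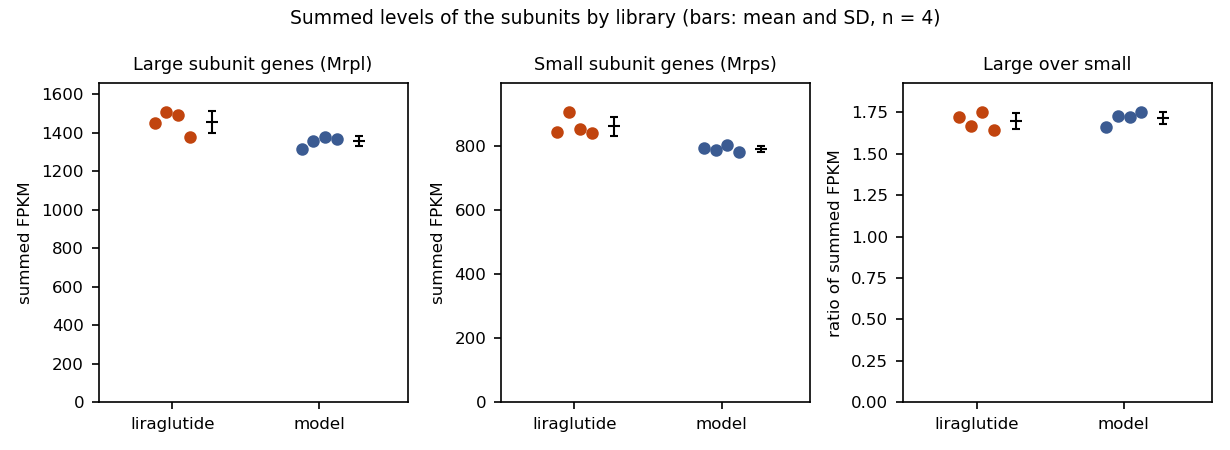
Summed FPKM (y axes, from 0) of large and small subunit genes and their ratio in each library (points), liraglutide left and model right; bars are mean and SD of 4 libraries. Liraglutide 4 has the lowest sums of its group, 1379 and 839 FPKM, and the ratio lies between 1.64 and 1.75 in all 8 libraries.

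FPKM is scaled to the library total, whereas the fold changes use edgeR's TMM factors, which correct for a few abundant genes taking a larger share of a library. With totals only, the median of all genes was -0.088 and that of the 78 genes 0.080, so both moved down together by 0.076. The summed FPKM of all genes was itself higher with liraglutide, at 390090 to 404688 FPKM, against 375907 to 381347 FPKM in model. Transcripts of the 78 genes made up 0.585 ± 0.0132% of the summed FPKM with liraglutide and 0.566 ± 0.00880% in model (SD, n = 4 each). The mean share was 3.35% higher with liraglutide, and the groups overlapped. Liraglutide 4, at 0.569%, lay below model 2 at 0.570% and model 3 at 0.575%. The level of 1 gene varied little between mice, with a median coefficient of variation of 6.13% with liraglutide and 5.49% in model, and a range of 0.882% to 18.3% over all genes and both groups.

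Among small subunit genes, Mrps24, the homologue of bacterial S3, which lines the entry of the messenger RNA channel, had the largest change. Its level was 37.5, 41.8, 42.9 and 39.6 FPKM in liraglutide mice 1 to 4, against 31.1, 30.4, 28.5 and 27.99 FPKM in model mice 1 to 4. Every liraglutide library was above every model library, and the log2 change was 0.53 ± 0.064 (SE; adjusted p = 0.00197 in edgeR). Its annotated exons overlap those of Urgcp on the same strand, so its count may be split between the genes. Mrps7, which in bacteria organises the head of the subunit, had 39.1, 44.0, 41.6 and 42.3 FPKM with liraglutide, against 37.3, 34.9, 35.7 and 33.6 FPKM in model. Those groups also stood apart, and the log2 change was 0.31 ± 0.055 (SE, edgeR adjusted p = 0.00812). Its exons overlap those of Gga3 and Mif4gd on the other strand, and no source used here says whether the counting used strand. Mrps16, an early assembling protein whose human counterpart is mutated in a mitochondrial disease, had 40.3, 46.5, 38.2 and 37.5 FPKM with liraglutide, against 32.2, 31.8, 33.8 and 32.5 FPKM in model. Liraglutide 2 was the highest, the groups did not overlap, and the log2 change was 0.39 ± 0.073 (SE, edgeR adjusted p = 0.0106).

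Of the 3 genes named Mrps18, Mrps18a passed the test. Mrps18a, whose protein sits in the large subunit, had 50.5, 51.4, 51.6 and 46.0 FPKM with liraglutide, against 44.6, 40.6, 44.1 and 43.7 FPKM in model, and its log2 change was 0.28 ± 0.058 (SE; adjusted p = 0.0161 in edgeR, 0.0510 without model 2). Mrps18c, which takes the place of S18 in the small subunit, had 33.1, 34.2, 31.9 and 32.0 FPKM with liraglutide, against 33.2, 36.8, 34.8 and 36.8 FPKM in model, with a log2 change of -0.035 (edgeR adjusted p = 0.781). With the length correction it was the 1 member that fell, at -0.27 (adjusted p = 0.0329). Mrps18a lost its call with that correction, at 0.12 (edgeR adjusted p = 0.212). With GC content added its log2 change was 0.077 (edgeR adjusted p = 0.462). Mrps18b, at another place in the small subunit, had 15.6, 14.7, 17.8 and 15.4 FPKM with liraglutide, against 15.9, 17.9, 14.3 and 16.1 FPKM in model, and did not pass (log2 change 0.067). The difference between the 3 genes was not tested.

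Mrps21, the most abundant small subunit transcript, had 155, 159, 143 and 151 FPKM with liraglutide, against 141, 130, 136 and 139 FPKM in model, and rose 1.17-fold (edgeR adjusted p = 0.0176). Without model 2 its adjusted p was 0.0556, and its log2 change was -0.0044 with the correction for gene length. Mrps26, a mitochondrion-specific protein, had 24.02, 28.9, 27.2 and 24.8 FPKM with liraglutide, against 22.0, 21.7, 23.0 and 20.9 FPKM in model, and rose 1.26-fold (edgeR adjusted p = 0.0207). Mrps15, the homologue of bacterial S15, had 52.2, 54.5, 54.7 and 50.8 FPKM with liraglutide, against 49.2, 44.7, 50.6 and 46.4 FPKM in model, and rose 1.17-fold (edgeR adjusted p = 0.0349). In both genes the lowest liraglutide library lay above the highest model library. The call of Mrps26 ended without liraglutide 3 or model 1, 2 or 4 (adjusted p up to 0.0598), and that of Mrps15 without any library but liraglutide 4 or model 3 (up to 0.0946). The other small subunit genes that rose were Mrps12, of the decoding centre, and Mrps23, by 1.28-fold and 1.16-fold, and each was called in 1 of the 8 fits that leave out a library. Mrps25 had the lowest level of the small subunit genes, 3.47 ± 0.034 FPKM with liraglutide and 3.42 ± 0.135 FPKM in model (SD, n = 4 each), and did not pass. Mrps36, of alpha-ketoglutarate dehydrogenase, had a log2 change of 0.22 (edgeR adjusted p = 0.0613; 0.0409 without model 3) and Mrps30, of the large subunit, one of 0.090, without a call.

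Among large subunit genes the smallest p belonged to Mrpl23, whose bacterial homologue lines the exit of the peptide tunnel. Its level was 25.2, 28.8, 24.95 and 26.3 FPKM with liraglutide, against 21.4, 20.6, 21.1 and 21.0 FPKM in model. The groups stood clear of each other, and the log2 change was 0.40 ± 0.053 (SE, edgeR adjusted p = 0.00278). Mrpl28, another protein with a bacterial homologue, had 39.1, 44.6, 42.6 and 39.4 FPKM with liraglutide, against 32.0, 32.5, 34.5 and 33.1 FPKM in model, a log2 change of 0.40 ± 0.059 (SE, edgeR adjusted p = 0.00409). Mrpl12, which forms the flexible stalk that recruits translation factors and also binds the mitochondrial RNA polymerase, had 95.2, 103, 95.1 and 85.2 FPKM with liraglutide, against 73.3, 75.5, 80.1 and 80.8 FPKM in model. No library of one group reached into the other, and the log2 change was 0.37 ± 0.065 (SE, edgeR adjusted p = 0.00887).

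Mrpl14, at the interface between the subunits, had 6.24, 6.23, 6.73 and 6.20 FPKM with liraglutide, against 5.66, 5.49, 4.97 and 5.40 FPKM in model (log2 change 0.32, edgeR adjusted p = 0.0111). Its exons overlap those of Tmem63b on the other strand. Mrpl2, near the site of peptide bond formation, had 45.4, 48.1, 49.2 and 47.8 FPKM with liraglutide, against 42.4, 41.0, 40.2 and 43.1 FPKM in model (log2 change 0.27, edgeR adjusted p = 0.0113). Mrpl17, near the tunnel exit, had 5.39, 5.90, 5.88 and 6.15 FPKM with liraglutide, against 4.87, 4.98, 5.20 and 4.91 FPKM in model (log2 change 0.30, edgeR adjusted p = 0.0115). In all 3 genes the lowest liraglutide library lay above the highest model library. Mrpl57, a small mitochondrion-specific protein, had the largest log2 change of the subunit, 0.43 ± 0.10 (SE, edgeR adjusted p = 0.0272), but its groups overlapped, at 7.87, 9.01, 8.69 and 7.06 FPKM with liraglutide against 6.67, 6.07, 7.11 and 5.67 FPKM in model. Its call ended without liraglutide 2 or 3 or model 1, 2 or 4 (adjusted p up to 0.0775). The remaining large subunit genes that rose were Mrpl4, Mrpl10, Mrpl18, Mrpl36, Mrpl37 and Mrpl54, by 1.13-fold to 1.27-fold. Of the 8 fits that leave out a library, Mrpl4 was called in 7, Mrpl10 and Mrpl54 in 5, Mrpl36 in 3 and Mrpl18 and Mrpl37 in 1. With the length correction the log2 change of Mrpl54 was 0.023, and with GC content added -0.054. Mrpl18 and Mrpl37 also lost their call with library totals only, limma, the replicate block and both corrections. Exons of Mrpl18 overlap those of Tcp1, and exons of Mrpl36 those of Ndufs6, in both cases on the other strand. Over all libraries Tcp1 had 24764 counts beside 9429 for Mrpl18, and Ndufs6 had 10990 beside 2585 for Mrpl36.

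**Figure D3:**
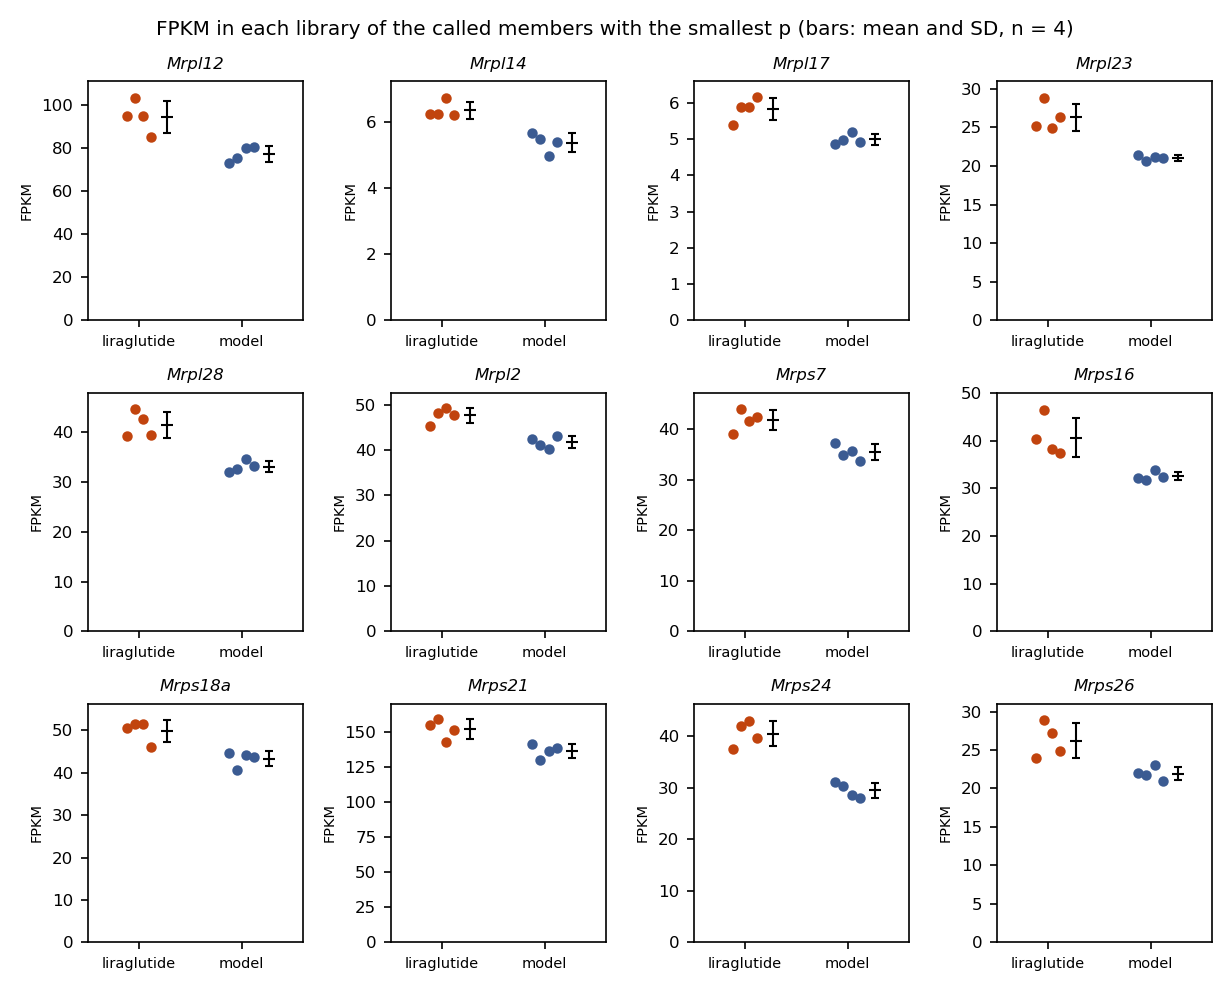
FPKM (y axes, from 0) of 12 genes in each library (points), liraglutide left and model right; bars are mean and SD of 4 libraries. They are the 6 of each symbol group with the smallest p among those that rose, and the liraglutide points lie above the model points in every panel.

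Several abundant or well-known members did not pass. Mrpl42, the transcript with the highest level, had 234, 236, 237 and 206 FPKM with liraglutide, against 213, 211, 219 and 236 FPKM in model (log2 change 0.13, edgeR adjusted p = 0.207). Mrpl58, a peptidyl-tRNA hydrolase that frees stalled ribosomes, had 29.5, 29.1, 30.1 and 34.0 FPKM with liraglutide, against 27.4, 29.2, 27.2 and 26.7 FPKM in model (log2 change 0.23, edgeR adjusted p = 0.0677). The most negative values were those of Mrps6, Mrpl32, Mrps22 and Mrpl19, and none passed. Mrps6 had 11.4, 11.4, 11.9 and 10.8 FPKM with liraglutide, against 13.5, 13.0, 12.0 and 17.8 FPKM in model (log2 change -0.23, edgeR adjusted p = 0.275), and its exons overlap those of Slc5a3 on the same strand. Mrpl32, whose precursor is cut by a protease of the inner membrane, had a log2 change of -0.12, Mrps22 one of -0.12 and Mrpl19, the large subunit gene with the lowest level, one of -0.10. In FPKM, 18 of the 78 genes were higher without overlap between groups, against 4.91% of all genes, and 4 were lower without overlap, against 15.4% of all genes. The 4 were Mrpl3, Mrpl19, Mrps6 and Mrps22, and with the TMM scaling used for the fold changes the groups of all 4 overlapped. On that scale Mrpl4, Mrpl57, Mrps12 and Mrps23, which were called but overlapped in FPKM, were higher without overlap.

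Of the 22 genes that rose, 9 kept their call whichever library was left out: Mrps24, Mrpl23, Mrpl28, Mrps7, Mrpl12, Mrps16, Mrpl14, Mrpl2 and Mrpl17. Of these, Mrps16 and Mrpl2 lost their call with the length correction (edgeR adjusted p = 0.114 and 0.137). With GC content added, Mrpl12, Mrpl28 and Mrps7 lost theirs too (edgeR adjusted p = 0.116, 0.0716 and 0.0714). Mrps24, Mrpl23 and Mrpl14 were called in all 20 alternative fits. By position in the ribosome, where Mrps18a and Mrps18b count as mitochondrion-specific and Mrps36 as neither, 16 of 46 proteins at the place of a bacterial one rose, as did 6 of 31 mitochondrion-specific ones, and their median log2 changes were 0.16 and 0.14; the difference between these classes was not tested.

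The size of the change correlated with the base composition of the transcript. Across the 78 genes the log2 fold change correlated with GC content at r = 0.48 (Spearman's rho 0.56), and with log2 gene length at r = -0.11 (rho -0.16). Across 12738 tested genes with a known GC content the first was 0.21 (rho 0.37), and across all 12963 the second was -0.12 (rho -0.31). Genes share libraries and are not independent, so no p is given. With bins set after the values were seen, 14 of 22 members with at least 54% GC rose, 6 of 32 with 48% to 54% and 2 of 24 under 48%. The same bins held 11.4%, 5.32% and 0.986% rising genes among all those tested. The deviation of a library from the mean of all 8 correlated with GC content across genes at 0.127 to 0.159 with liraglutide and at -0.205 to -0.1 in model. For gene length the values were -0.161 to 0.0159 with liraglutide and 0.0249 to 0.15 in model. With a per-library correction for length the median log2 change of the 78 genes was 0.073, with 9 higher and 1 lower, and with GC content added it was 0.078, with 7 higher and 0 lower. The 7 were Mrps24, Mrpl23, Mrpl14, Mrpl17, Mrpl4, Mrpl57 and, not called otherwise, Mrpl35. After the length correction the log2 change of the 78 genes correlated with log2 gene length at r = 0.45, and at 0.53 with GC content added. Across all genes tested these values were 0.061 and 0.059. Among the 78 genes the corrections thus left shorter genes with lower values than longer ones. Whether the composition of the RNA or a step of library preparation differed between groups was not tested.

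**Figure D4:**
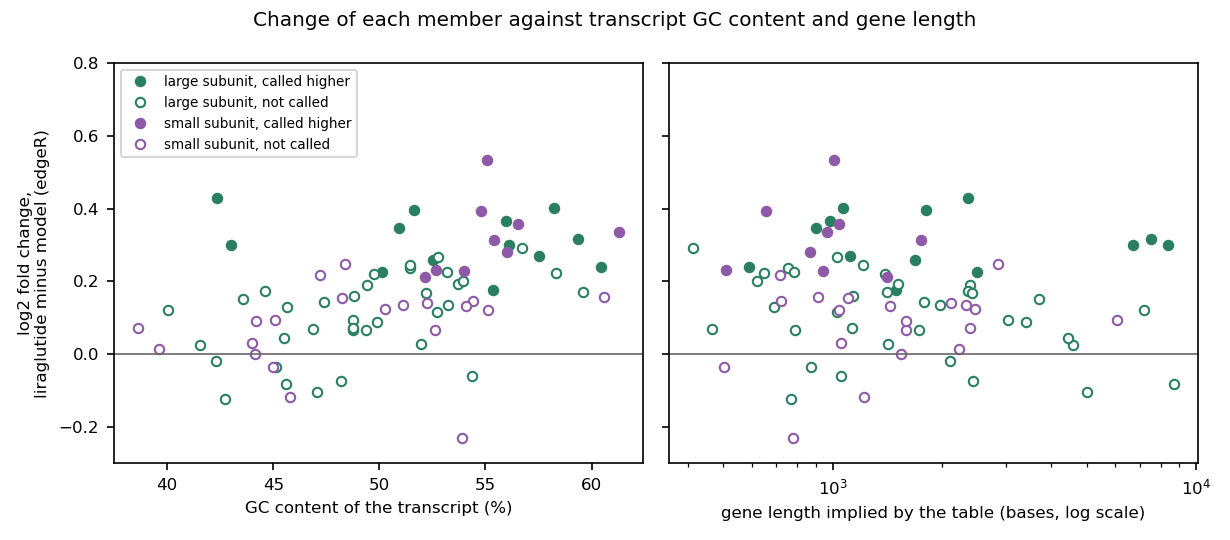
Log2 fold change (y axis, edgeR, liraglutide minus model) of the 78 genes against transcript GC content (left, %) and gene length (right, bases, log scale); filled points rose at an adjusted p under 0.05. Filled points gather at the right of the GC panel, where 14 of the 22 genes with at least 54% GC rose, and spread over all gene lengths.

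Promoters of the 69 members matched by symbol, whether they rose or not, were searched for the motifs of nuclear respiratory factor 1 (NRF1; GCGCA and GCGC with any 1 base between them) and of ETS factors such as GABP (CCGGAAG), both known regulators of nuclear genes for mitochondrial proteins, on both strands of the 250 bases before the RefSeq start (build GRCm38.p6, first start listed). The NRF1 letters were in 10 of 69 promoters (14.5%), against 3.86% of 27025 promoters of the same length, and the ETS letters in 17 (24.6%), against 7.05%. The 27025 promoters were not limited to the 12963 genes tested, and these differences in share were not tested. Of the 26 members with either motif 8 rose, at a median log2 change of 0.22, and of the 43 with neither 12 rose, at a median of 0.13. Windows without these letters may hold other forms of the sites. The motifs do not overlap each other in the promoters shown, where capitals mark them and which were chosen because the genes rose and hold the first motif, both or the second. All are 5′ to 3′ on the strand of the gene, at chr11:120484387-120484636 (plus strand) for Mrpl12, chr7:105811088-105811337 (minus strand) for Mrpl17 and chr17:46110754-46111003 (plus strand) for Mrps18a.
Mrpl12: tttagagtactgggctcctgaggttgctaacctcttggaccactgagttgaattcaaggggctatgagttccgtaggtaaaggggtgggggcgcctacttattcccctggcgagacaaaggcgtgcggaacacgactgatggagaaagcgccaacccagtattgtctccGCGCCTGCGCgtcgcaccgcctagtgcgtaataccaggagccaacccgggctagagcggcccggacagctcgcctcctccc
Mrpl17: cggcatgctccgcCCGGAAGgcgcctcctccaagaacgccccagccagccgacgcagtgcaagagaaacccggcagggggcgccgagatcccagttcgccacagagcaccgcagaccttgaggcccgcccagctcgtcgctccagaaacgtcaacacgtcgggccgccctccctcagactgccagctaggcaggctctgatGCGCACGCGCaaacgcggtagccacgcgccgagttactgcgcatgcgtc
Mrps18a: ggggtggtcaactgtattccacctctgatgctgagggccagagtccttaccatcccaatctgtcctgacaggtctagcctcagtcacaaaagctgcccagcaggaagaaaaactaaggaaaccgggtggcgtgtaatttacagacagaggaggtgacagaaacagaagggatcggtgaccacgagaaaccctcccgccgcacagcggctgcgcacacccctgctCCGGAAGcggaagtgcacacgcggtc
The NRF1 match of Mrpl12 begins 81 bases before the start and reads as the reverse complement of the searched letters. In Mrpl17 the ETS match begins 237 bases and the NRF1 match 49 bases before the start, and in Mrps18a the ETS match begins 26 bases before it.

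Other genes of mitochondrial translation were counted by list, beside 5.45% of all genes that rose and a median log2 change of -0.012. Of the 5 ribosome subunits with other names, Aurkaip1 and Gadd45gip1 rose and 0 fell (median log2 change 0.22). Aurkaip1 had 32.9 ± 1.95 FPKM with liraglutide and 28.8 ± 1.31 FPKM in model, and Gadd45gip1 had 15.2 ± 0.916 FPKM with liraglutide and 13.0 ± 0.944 FPKM in model (SD, n = 4 each; edgeR adjusted p = 0.0280 and 0.0319, called in 3 and 2 of the 8 fits that leave out a library). Of 16 translation factors Tufm and Oxa1l rose and 0 fell (median 0.083). Tufm, the elongation factor that delivers aminoacyl-tRNA, had 70.1 ± 1.93 FPKM with liraglutide and 57.8 ± 1.74 FPKM in model (SD, n = 4 each), a log2 change of 0.36 ± 0.048 (SE, edgeR adjusted p = 0.00278), and kept its call without any 1 library. Oxa1l, which inserts new proteins into the inner membrane, rose 1.14-fold (edgeR adjusted p = 0.0497), a call that ended without any single library. Of 20 mitochondrial aminoacyl-tRNA synthetases Lars2 and Aars2 rose 1.30-fold and 1.22-fold and 0 fell (median 0.081), called in 6 and 2 of the 8 fits that leave out a library. Of 27 assembly factors and ribosomal RNA modifiers Malsu1, which binds the immature large subunit, rose 1.16-fold (edgeR adjusted p = 0.0247, called in 3 of those 8 fits) and 0 fell (median 0.12), and Rcc1l did not pass (0.0673). Of 9 mitochondrial transcription genes tested 0 rose and 0 fell in edgeR, with 3 at an unadjusted p under 0.05. Polrmt, the RNA polymerase, stood at 9.33 ± 0.749 FPKM with liraglutide and 8.60 ± 0.472 FPKM in model, and the helicase gene Twnk at 6.56 ± 0.492 FPKM with liraglutide and 6.14 ± 0.338 FPKM in model (SD, n = 4 each). For the ribosome of the cytosol, 58 of 76 protein genes rose and 0 fell, with a median log2 change of 0.28. With the length correction 16 rose, at a median of 0.10, against 2.86% of all genes. With GC content added 12 rose, against 1.29% of all genes, and the difference from the mitochondrial set was not tested.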

How the data were processed

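The authors deposited raw counts per gene and FPKM values for 8 libraries, per the file headers. Stranded libraries were made from messenger RNA, per the labels' protocols. Tools named in the submitters' processing notes, without versions, are DESeq, HTSeq, Cufflinks, HISAT2 and Trimmomatic, with the human build GRCh38. All 78 members carried the matching mouse RefSeq identifier, which goes against a human build, so the build used is not known here and coordinates are given for RefSeq promoters only. FPKM as deposited matched the count divided by library total and a whole-number gene length within 0.01 bases for 17484 of 17484 genes with a count. Animal codes in the column names assigned columns to libraries, and 0 columns of per-sample values were unused.

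Counts were tested with edgeR 4.0.16 (R 4.3.3) by its quasi-likelihood test with TMM scaling and filterByExpr (minimum count 10), on 12963 genes. Benjamini-Hochberg adjustment covered all of these, and a gene was called at an adjusted p under 0.05. SE is the log2 fold change divided by the root of the F statistic. GC content came from the GENCODE vM21 transcript of the symbol nearest in length. Marker CPM are counts scaled to the library total. In simulated counts the test recovered 48 of 100 genes changed 1.5-fold and 71 of 100 changed 2-fold, with 6 false calls. The members that rose did so by at most 1.45-fold, so the simulated folds do not cover their changes. Alternatives used other scalings, filters, DESeq2 1.42.0, limma 3.58.1 on log2(FPKM + 1) and log2(FPKM + 0.1), a replicate block, loess offsets (span 0.5) for length and GC content, and omission of libraries.

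Genes were named by rule: in each symbol group the 6 smallest p among called genes, the 2 highest and 2 lowest log2 fold changes, the 2 highest levels and the lowest level, then members with a special role, and in other pathway lists the 2 smallest p. Other members and marker genes named with a value or as called were added after their values were seen. The members, lists and rules were chosen with earlier results of these data known.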

Additional observations from a re-analysis of the deposited data

Results flagged for a closer look

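In 2 of 78 groups of 4 libraries examined, 1 library stood apart from the other 3 by Dixon's criterion, where chance gives about 1 in 20. Mrpl14 had 6.73 FPKM in liraglutide 3, beside 6.20 to 6.24 FPKM in the other liraglutide libraries. Mrpl42 had 206 FPKM in liraglutide 4, beside 234 to 237 FPKM in the others of its group.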

How the results depend on the processing

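The direction of the medians held in all 20 alternative fits, but the number of genes that rose and the size of the shift did not, and the cause was not tested. Genes that rose numbered 14 with library totals only, 13 with limma on FPKM at either pseudocount, 9 with the length offset, 7 with the length and GC offset, 9 without liraglutide 2 and model 3, and 11 to 23 on leaving out each library. Large subunit genes that rose numbered 8 in limma at either pseudocount, 7 and 6 with those offsets, 6 without both libraries and 6 to 15 on single omissions. Small subunit genes that rose numbered 5 with library totals, 5 in limma, 2 and 1 with the offsets, 3 without both libraries and 3 to 9 on single omissions. With the length offset 1 gene, Mrps18c, fell. The medians of all members, the large and the small subunit were 0.080, 0.095 and 0.066 with library totals, 0.075, 0.093 and 0.063 with limma at a pseudocount of 1, 0.079, 0.096 and 0.067 at 0.1, 0.073, 0.079 and 0.038 with the length offset, and 0.078, 0.077 and 0.078 with GC content added. The large minus small difference was -0.00044 in that last fit and 0.00099 to 0.054 on single omissions. Mrps21 turned to -0.0044 and -0.0024 with the offsets, and Mrpl54 to -0.054 with length and GC content. With the replicate block 19 genes rose; the correlations of same-numbered libraries were 0.149, -0.0275, 0.143 and 0.0648, so the numbers were not taken as pairs.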

Other observations

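Among members under 1000 bases long 8 of 23 rose, with a median log2 fold change of 0.22, beside 29.1% of all tested genes of that length. Among members of 1000 to under 2000 bases 9 of 30 rose (median 0.16), beside 11.6% of all genes of that length, and among those of 2000 bases or more 5 of 25 rose (median 0.12), beside 2.80%. These bins were set after values had been seen and carry no test. Exons of 21 members overlap those of another gene of the table in GENCODE vM21 (GRCm38), on the same strand for 3 of them, and 5 of the 21 rose. One such pair is Mrpl46 and Mrps11, which lie on opposite strands and of which neither rose.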
